A study of Mus musculus with 10 samples.

Results

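The unfolded protein response and endoplasmic-reticulum-associated degradation (ERAD) were examined through 10 genes in mouse retina. The genes were matched by symbol. They comprised the sensors Ern1, Atf6, Atf6b and Eif2ak3, the transcription factor Xbp1, the cochaperone Dnajb9 and the ERAD genes Herpud1, Syvn1, Sel1l and Edem1. Each matched 1 row of the deposited table of 57010 genes, and all 10 were among the 15539 genes that passed the filter on low counts.

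Retinas came from mice aged 6 to 8 weeks that had received an intravitreal injection of an adeno-associated virus (AAV) carrying green fluorescent protein (GFP). In 5 mice the vector was AAV2-GFP, with the AAV2 capsid in common use for the inner retina. In the other 5 it was AAV206-GFP, whose capsid the study's title presents as specific for the retinal pigment epithelium (RPE). Retinas were taken 14 days after injection for bulk RNA sequencing. Both groups thus carried a vector with the same reporter, and uninjected retinas were not analysed here. Every difference is therefore between the vector groups and not from an untreated state. The labels give no strain, sex, dose or batch. Nothing beyond the mouse number tells the libraries of a group apart, so p-values measure the spread between these 10 retinas.

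When unfolded proteins gather in the endoplasmic reticulum, membrane sensors open separate routes. IRE1 (encoded by Ern1) removes a short stretch from Xbp1 mRNA by cytoplasmic splicing, and the shifted reading frame encodes the active factor XBP1s. ATF6 and its relative ATF6B travel to the Golgi, where proteases release a fragment that activates chaperone genes. PERK (encoded by Eif2ak3) phosphorylates eIF2α, which slows translation and favours that of ATF4. ERAD extracts proteins that fail to fold and passes them to the proteasome, through the ubiquitin ligase HRD1 (Syvn1) and its partner SEL1L. Secretory and photoreceptor cells rely on this machinery because of the large flow of membrane protein through their endoplasmic reticulum.

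A first sequence is the stretch of Xbp1 that IRE1 acts on, shown because counts per gene cannot tell its forms apart. A search of the coding part of Xbp1-201 (GENCODE M21) for 26 bases that follow the letters CNGCAG and end in the same letters found 2 stretches. The printed stretch is in exon 4 of 5, at chr11:5524282-5524307 on the plus strand (GRCm38), and it overlaps the textbook intron. Its ends were set by the search and lie a few bases downstream of the cut sites of IRE1. Capitals mark the 26 bases.
Xbp1 mRNA: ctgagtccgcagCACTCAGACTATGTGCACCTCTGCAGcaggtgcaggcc
The 26 bases are not a multiple of 3, so their removal shifts the frame of the 801-base coding sequence. The annotation holds 4 Xbp1 transcripts, and the counts below are 1 sum per gene that does not separate the spliced from the unspliced form.

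The other sequence of interest is the endoplasmic reticulum stress element (ERSE), which ATF6 binds together with NF-Y. It was searched as CCAAT, 9 bases of any kind and CCACG, on both strands of the 250 bases before each RefSeq gene start (GRCm38.p6). A window was at hand for 9 of the 10 genes, all but Atf6. ERSE was in 0.113% of 32851 windows, and among the 9 genes in that of Syvn1 alone. The shorter ERSE-II, searched as ATTGG, 1 base of any kind and CCACG, was in 0.0304% of windows and among the 9 in that of Herpud1 alone. The windows of these 2 genes are shown because both genes fell, with the match in capitals. That of Syvn1 is chr19:6046326-6046575 and that of Herpud1 is chr8:94386179-94386428, both on the plus strand.
Syvn1: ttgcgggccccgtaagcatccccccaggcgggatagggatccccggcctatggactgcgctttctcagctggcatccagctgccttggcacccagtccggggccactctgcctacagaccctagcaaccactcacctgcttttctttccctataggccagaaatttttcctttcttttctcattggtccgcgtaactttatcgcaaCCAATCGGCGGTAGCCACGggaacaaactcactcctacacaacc
Herpud1: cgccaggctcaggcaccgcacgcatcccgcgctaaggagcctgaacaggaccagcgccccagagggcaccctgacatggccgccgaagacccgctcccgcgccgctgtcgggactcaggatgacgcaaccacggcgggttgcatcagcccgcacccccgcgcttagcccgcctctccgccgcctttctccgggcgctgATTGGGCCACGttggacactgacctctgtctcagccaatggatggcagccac
A match describes letters and not a bound site, and a window without one says only that these letters are not in it.

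Total counts ranged from 10989843 to 12752604 per library. The 10 genes had between 299 (Edem1) and 2028 (Sel1l) counts in a library, far above the floor of 3 counts that corresponds to between 0.235 and 0.273 counts per 1000000 (CPM). Müller glia markers, which define a cell type of the retina, summed to between 1888 and 2794 CPM in AAV2-GFP and between 2032 and 2375 CPM in AAV206-GFP. AAV2-GFP mouse 1 stood apart in immune transcripts. Its 8 microglia and macrophage markers summed to 185 CPM against 19.5 to 41.4 CPM in the other 9 libraries, and its 8 plasma and B cell markers to 210 CPM against 11.2 to 21.5 CPM. Interferon response genes were high in AAV2-GFP mice 1 and 4, at 441 and 588 CPM, against 80.8 to 146 CPM elsewhere. In bulk tissue, fewer cells of a type and less RNA per cell cannot be told apart.

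Of the 10 genes, 5 fell with AAV206-GFP and none rose, at an adjusted p-value under 0.05 in edgeR's quasi-likelihood test over all tested genes. They were Xbp1, Atf6b, Syvn1, Edem1 and Herpud1. Over all 15539 tested genes 11.2% were called, 5.30% as lower and 5.95% as higher. The groups did not overlap in any of the 5 genes, with every AAV206-GFP retina below every AAV2-GFP retina, a pattern that 4.36% of all tested genes showed. The share without overlap was 5.41% in the other direction and 9.78% in either. The median log2 fold change of the 10 genes was -0.16, against -0.0095 over all tested genes. By role, 1 of the 4 sensors (Atf6b) and 3 of the 4 ERAD genes were called, and a difference between these roles was not tested. Without AAV2-GFP mice 1 and 4, or without AAV206-GFP mouse 4, 3 of the 5 were called, namely Xbp1, Atf6b and Syvn1.

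**Figure D1:**
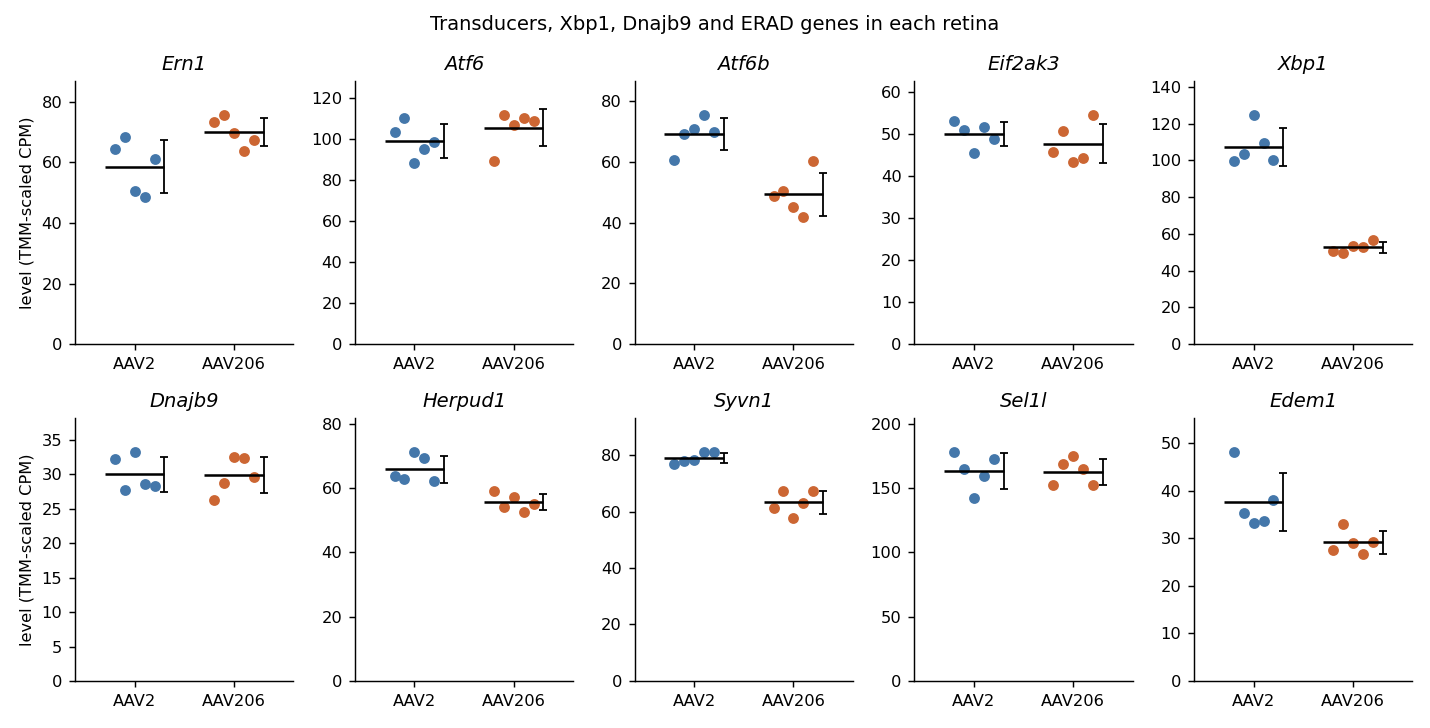
Level of each of the 10 genes in every retina, in TMM-scaled CPM on axes that start at 0, with AAV2-GFP in blue and AAV206-GFP in orange. Points are single mice (5 per group), horizontal lines are group means and error bars are SD. Xbp1 falls from 99.4 to 124 CPM in AAV2-GFP to 49.5 to 56.7 CPM in AAV206-GFP, while Dnajb9 and Sel1l cover nearly the same range in both groups.

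Xbp1 (ENSMUSG00000020484, chr11:5520659-5525893) showed the clearest difference. It was at 99.4, 103, 124, 109 and 100.1 CPM in AAV2-GFP mice 1 to 5. In AAV206-GFP mice 1 to 5 it was at 50.5, 49.5, 53.5, 52.8 and 56.7 CPM. The AAV206-GFP retinas lay in a narrow band well under the lowest AAV2-GFP retina. The means were 107 ± 10.3 and 52.6 ± 2.82 CPM (SD, n = 5), so that the AAV206-GFP mean was 49.0% of the AAV2-GFP mean. Its fitted log2 change was -1.03 (SE 0.07, edgeR adjusted p = 4.0e-07), the 6th smallest p-value of all tested genes. Plasma cells make much XBP1. In AAV2-GFP mouse 1, the retina with the high plasma and B cell markers, Xbp1 was at 99.4 CPM, close to the 100.1 CPM of mouse 5, and the part of such cells in the difference was not tested. Without AAV2-GFP mice 1 and 4 the log2 fold change was -1.06 (edgeR adjusted p = 2.0e-06).

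The enzyme that splices Xbp1 was not called. Ern1 (ENSMUSG00000020715), which encodes IRE1, was at 64.3, 68.5, 50.7, 48.5 and 61.0 CPM in AAV2-GFP mice 1 to 5. With AAV206-GFP the corresponding values were 73.4, 75.5, 69.7, 63.8 and 67.4 CPM. The groups overlapped through AAV2-GFP mice 1 and 2. The log2 fold change was 0.26 (SE 0.09) and missed the threshold, at an edgeR adjusted p of 0.0785. Among the alternatives run it passed only when AAV2-GFP mouse 2 was left out, with a log2 fold change of 0.32 (edgeR adjusted p = 0.0339). Its paralog Ern2, known from gut epithelium, had no count in any library.

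Dnajb9 (ENSMUSG00000014905), which encodes the BiP cochaperone ERdj4 and is a well-known target of XBP1s, was not called. It was at 32.3, 27.8, 33.3, 28.6 and 28.4 CPM in AAV2-GFP mice 1 to 5. The AAV206-GFP mice had 26.3, 28.8, 32.6, 32.4 and 29.6 CPM. The groups covered nearly the same range. Its fitted log2 change was -0.0052 (SE 0.08, edgeR adjusted p = 0.978), and its sign varied between settings.

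The wider IRE1-XBP1 list held 20 genes, of which 19 were tested. Of these, 5 fell, 1 rose and 13 were not called, while 5.30% of all tested genes were called lower and 5.95% higher. Besides Xbp1 and Edem1 the genes that fell were Dnajb11, Dnajc3 and Tmbim6. Dnajb11 and Dnajc3 encode the endoplasmic reticulum cochaperones ERdj3 and P58IPK. Dnajb11 went from 57.8 ± 3.67 to 45.5 ± 1.69 CPM (SD, n = 5; log2 fold change -0.34, edgeR adjusted p = 0.00281). Dnajc3 went from 67.6 ± 4.42 to 53.1 ± 2.90 CPM (SD, n = 5; log2 fold change -0.35, edgeR adjusted p = 0.00332). Tmbim6 encodes a membrane protein that restrains IRE1, and Ssr1, a subunit of the translocon-associated complex, was the gene that rose. These 2 were named after their values were seen, with log2 fold changes of -0.22 and 0.24, at edgeR adjusted p-values of 0.0261 and 0.0221. With an offset for GC content and exon length 5 of the 19 were called, all lower, so that Ssr1 was no longer called. Translocon and transport genes such as Sec61a1, Sec61b, Srpr and Sec23b were not called, at log2 fold changes of -0.08, -0.20, 0.05 and 0.05. The median of the list was -0.06. Without AAV206-GFP mouse 4, and also without AAV2-GFP mice 1 and 4 together, 3 of the 19 were called, all lower.

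Of the ATF6 sensors, Atf6b fell and Atf6 was not called. Atf6 (ENSMUSG00000026663) was at 103.6, 110.6, 88.3, 95.4 and 98.7 CPM in AAV2-GFP mice 1 to 5. In AAV206-GFP mice 1 to 5 it was at 89.7, 112, 107, 110.6 and 109 CPM. The ranges overlapped almost fully, and the log2 fold change was 0.09 (SE 0.07, edgeR adjusted p = 0.464). The sign for Atf6 varied between settings, with a lowest log2 fold change of -0.01.

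Atf6b (ENSMUSG00000015461, chr17:34647146-34655074) encodes the weaker activator of the pair. It was at 60.8, 69.3, 71.0, 75.3 and 69.97 CPM in AAV2-GFP mice 1 to 5. With AAV206-GFP the corresponding values were 48.7, 50.4, 45.1, 41.9 and 60.3 CPM. AAV206-GFP mice 1 to 4 lay well below the AAV2-GFP range and mouse 5 just under its lower end. The log2 fold change was -0.49 (SE 0.09, edgeR adjusted p = 0.00257). Under 2 other scalings, RLE and upper-quartile, the 2 groups overlapped at that end and 4 genes rather than 5 had no overlap. Whether Atf6b and Atf6 differed from each other in their response was not tested.

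The ATF6 list of 16 genes held the largest share of calls. Lists were chosen with earlier results of these data known, and a difference between lists was not tested. All 16 were tested, 10 fell, none rose and 6 were not called, with a median log2 fold change of -0.49. Over all tested genes 5.30% were called lower. Beside Atf6b and Herpud1, all 8 chaperones, foldases and secreted factors of the list fell without overlap between the groups. None of these 8 was placed on another list, and which branch acts on them was not tested. Hspa5, which encodes BiP, the main chaperone of the compartment, was at 365 ± 10.3 CPM in AAV2-GFP and 159 ± 19.1 CPM in AAV206-GFP (SD, n = 5; log2 fold change -1.20, edgeR adjusted p = 9.9e-08). Calr, which encodes the lectin chaperone calreticulin, went from 316 ± 10.5 to 157 ± 10.5 CPM (SD, n = 5; log2 fold change -1.01, edgeR adjusted p = 7.5e-08). Sdf2l1, a partner of BiP, had the largest fold, from 8.54 ± 1.80 to 3.28 ± 0.420 CPM (SD, n = 5; log2 fold change -1.38, edgeR adjusted p = 0.00023).

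The remaining chaperones, foldases and secreted factors of the list moved the same way. Manf, a secreted protective factor, had a log2 fold change of -1.07 and Creld2, a stress-inducible secreted protein, of -0.92, at edgeR adjusted p-values of 6.7e-05 and 0.00374. Hsp90b1 (GRP94), Hyou1 (GRP170) and Pdia4 (ERp72) had log2 fold changes of -0.65, -0.57 and -0.48, at edgeR adjusted p-values of 1.3e-05, 8.2e-05 and 0.000404. Hsp90b1 carried decimals in all 10 libraries, a sign that its reads were divided with another gene, so its level is uncertain. None of the 5 genes of the list that process or assist ATF6 was called. The Golgi proteases Mbtps1 and Mbtps2 had log2 fold changes of 0.11 and 0.23, and the NF-Y subunits Nfya, Nfyb and Nfyc of -0.16, -0.03 and -0.11.

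Eif2ak3 (ENSMUSG00000031668), which encodes PERK, was not called. It was at 53.0, 51.0, 45.5, 51.7 and 48.9 CPM in AAV2-GFP mice 1 to 5. The AAV206-GFP mice had 45.7, 50.8, 43.3, 44.4 and 54.4 CPM. The groups overlapped, and both the highest and the lowest retina were in AAV206-GFP. Its fitted log2 change was -0.07 (SE 0.08, edgeR adjusted p = 0.600). Decimals in 4 libraries leave its level uncertain.

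Of the 12 genes on the PERK list, all tested, 3 fell, none rose and 9 were not called, with a median log2 fold change of -0.13. The share called lower over all tested genes was 5.30%. Ddit3, which encodes the stress factor CHOP, went from 39.3 ± 5.39 to 29.4 ± 2.55 CPM (SD, n = 5; log2 fold change -0.42, edgeR adjusted p = 0.0112). A further row with the symbol Ddit3 (ENSMUSG00000116429), with 105 bases of exon, was not among the tested genes. Dnajc3, which inhibits PERK and is also on the IRE1-XBP1 list, was the next. Atf4, named after its values were seen, had a log2 fold change of -0.26 at the edge of the threshold (edgeR adjusted p = 0.0486). Ddit3 is itself a target of ATF4. Of further targets, Chac1, Sesn2, Trib3 and Asns had log2 fold changes of -0.80, -0.22, 0.03 and 0.13, and none of these was called. The phosphatase subunits Ppp1r15a and Ppp1r15b, which reverse the action of PERK, had -0.14 and -0.12 and were not called either.

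**Figure D2:**
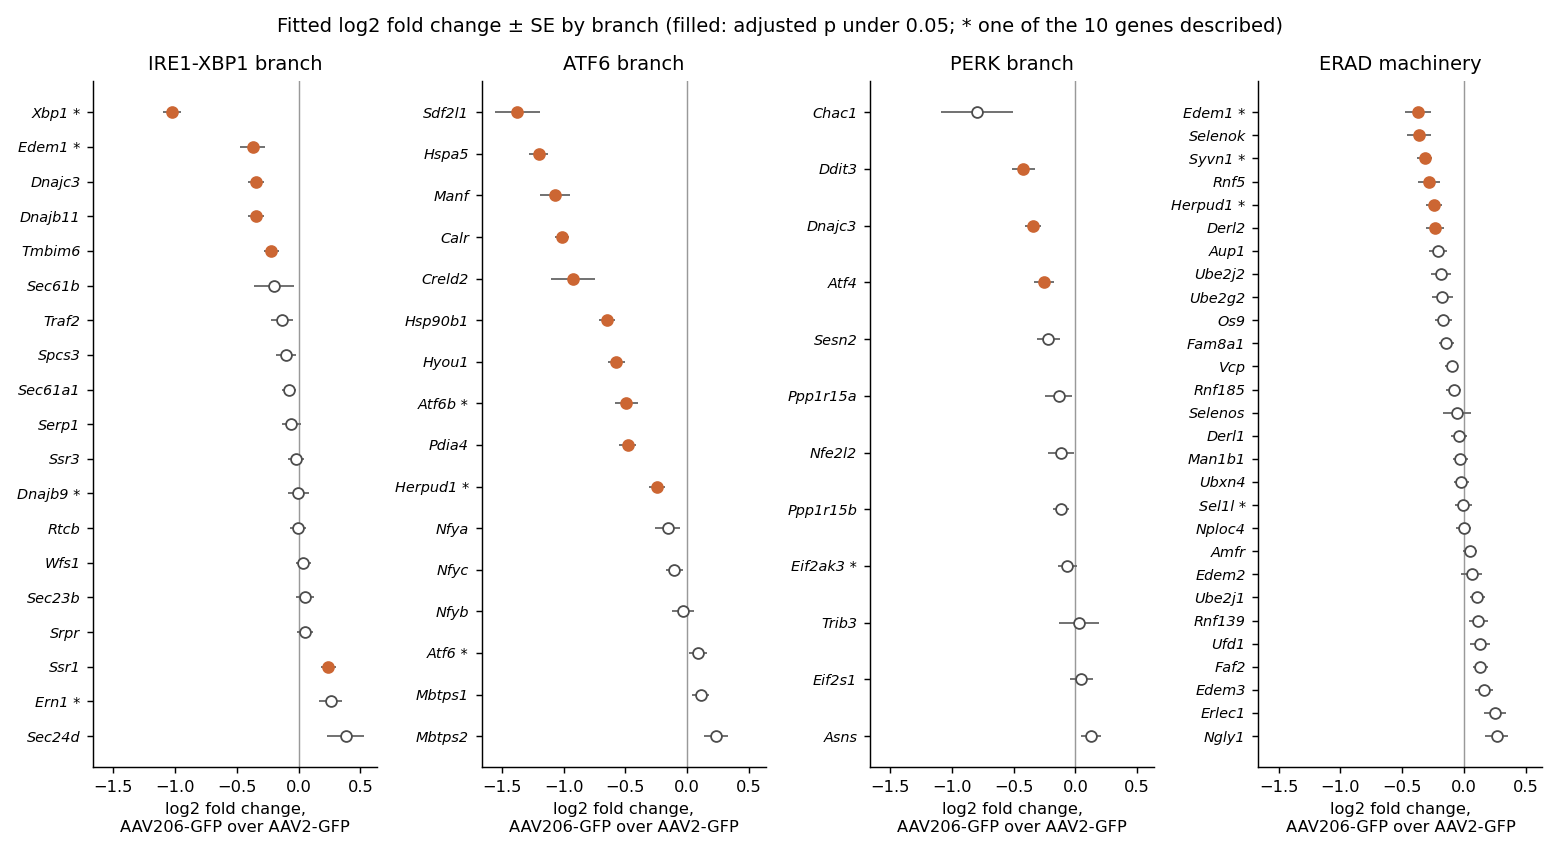
Fitted log2 fold change of AAV206-GFP over AAV2-GFP (x axis, points with ± SE bars) for every tested gene of the IRE1-XBP1, ATF6, PERK and ERAD lists, 5 mice per group. Filled points had an edgeR adjusted p under 0.05 and asterisks mark the 10 genes described here. The filled points of the ATF6 list reach from -0.24 to -1.38, and the sensors Ern1, Atf6 and Eif2ak3 are open points at 0.26, 0.09 and -0.07.

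The 3 branches were also compared within each retina, at the mRNA of the sensors Ern1, Atf6 and Eif2ak3. Their log2 ratios of counts need no scaling between libraries. Atf6b was in none of these ratios. Ern1 over Eif2ak3 was 0.22 ± 0.20 in AAV2-GFP and 0.55 ± 0.15 in AAV206-GFP (SD, n = 5). The difference of 0.34 had p = 0.0238 in a two-sided exact permutation test and 0.0714 after adjustment over the 3 pairs. Ern1 over Atf6 differed by 0.18 (exact permutation p = 0.103, adjusted 0.103). Atf6 over Eif2ak3 differed by 0.16 (exact permutation p = 0.0873, adjusted 0.103). None of these 3 pairs was thus shown to differ in its mRNA ratio, in a test whose smallest possible p is 0.00794. Pairs with Atf6b were not tested. Without AAV206-GFP mouse 5 the first difference was 0.40 with an adjusted exact permutation p of 0.0476.

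**Figure D3:**
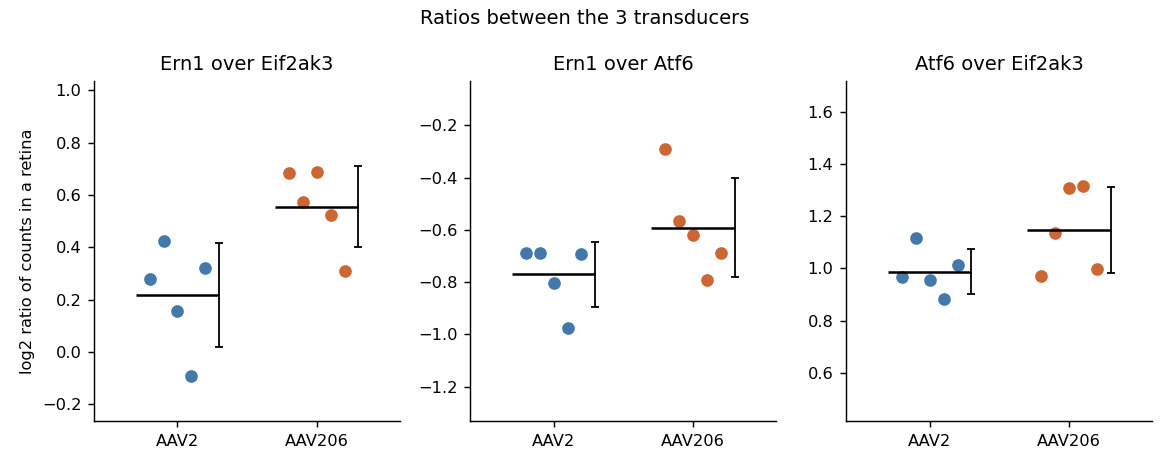
Log2 ratio of the counts of 2 sensors in each retina (y axis), with AAV2-GFP in blue and AAV206-GFP in orange. Points are single mice (5 per group), lines are means and error bars are SD, on axes of equal span that do not start at 0. In each panel the groups overlap, least for Ern1 over Eif2ak3 with means of 0.22 and 0.55.

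Among the ERAD genes, the ligase fell and its partner was not called. Syvn1 (ENSMUSG00000024807, chr19:6046576-6053712) encodes HRD1 and holds the ERSE match printed above. It was at 76.9, 77.9, 78.1, 80.99 and 81.1 CPM in AAV2-GFP mice 1 to 5. In AAV206-GFP mice 1 to 5 it was at 61.3, 67.4, 57.8, 63.1 and 67.2 CPM. The AAV2-GFP retinas were nearly equal, with a coefficient of variation of 2.45%, and all lay above the highest AAV206-GFP retina. The log2 fold change was -0.32 (SE 0.06, edgeR adjusted p = 0.00323). Decimals in all 10 libraries show that some of its reads were divided with another gene, which leaves its level uncertain.

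Sel1l (ENSMUSG00000020964) encodes the adaptor that stabilises HRD1. It was at 178, 165, 143, 159 and 173 CPM in AAV2-GFP mice 1 to 5. With AAV206-GFP the corresponding values were 152, 169, 175, 165 and 152 CPM. The AAV206-GFP values all lay within the AAV2-GFP range. Its fitted log2 change was -0.0067 (SE 0.07, edgeR adjusted p = 0.964), and its sign varied between settings.

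Herpud1 (ENSMUSG00000031770, chr8:94386438-94395377) encodes HERP, which brings HRD1 and the retrotranslocation factors together, and holds the ERSE-II match printed above. It was at 63.8, 62.7, 71.2, 69.5 and 62.2 CPM in AAV2-GFP mice 1 to 5. The AAV206-GFP mice had 59.1, 54.3, 57.2, 52.6 and 55.2 CPM. The groups did not overlap, and AAV2-GFP mouse 5 and AAV206-GFP mouse 1 lay close together. The log2 fold change was -0.24 (SE 0.06, edgeR adjusted p = 0.0221). The call was lost without AAV2-GFP mouse 4, AAV206-GFP mouse 2 or AAV206-GFP mouse 4, at edgeR adjusted p-values of 0.0711, 0.0587 and 0.0566. It was also lost without AAV2-GFP mice 1 and 4 together, at a log2 fold change of -0.24 (edgeR adjusted p = 0.0893).

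Edem1 (ENSMUSG00000030104, chr6:108828641-108859356) encodes a lectin that marks misfolded glycoproteins for removal and is a known target of XBP1s. It was at 48.2, 35.4, 33.3, 33.7 and 38.1 CPM in AAV2-GFP mice 1 to 5. In AAV206-GFP mice 1 to 5 it was at 27.5, 33.1, 29.1, 26.8 and 29.3 CPM. The highest retina was AAV2-GFP mouse 1, the one with high immune markers, and AAV206-GFP mouse 2 lay just under the AAV2-GFP range. Its fitted log2 change was -0.37 (SE 0.10, edgeR adjusted p = 0.0290). Without AAV2-GFP mouse 1 it was -0.27 (edgeR adjusted p = 0.0507), and without AAV2-GFP mice 1 and 4 it was -0.30 (edgeR adjusted p = 0.0790). The call was also lost without AAV2-GFP mouse 5 or AAV206-GFP mouse 1, 3 or 4, at edgeR adjusted p-values of 0.0545, 0.0601, 0.0597 and 0.0703.

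The ERAD list held 29 genes, of which 28 were tested. Of these, 6 fell, none rose and 22 were not called, while 5.30% of all tested genes were called lower. The median log2 fold change of -0.05 was close to that of all genes. Besides Syvn1, Herpud1 and Edem1 the calls were Selenok, Rnf5 and Derl2, named after their values were seen. Selenok, a membrane selenoprotein linked to ERAD, had a log2 fold change of -0.37, the ligase gene Rnf5 of -0.28 and the derlin gene Derl2 of -0.24, at edgeR adjusted p-values of 0.0246, 0.0461 and 0.0470. The relatives of Edem1 had log2 fold changes of 0.06 (Edem2) and 0.17 (Edem3), and Derl1 of -0.04. The extraction ATPase Vcp and its cofactors Ufd1 and Nploc4 had -0.10, 0.13 and -0.0029, none of them called, and Vcp carried decimals in all 10 libraries. Derl3 did not pass the filter, at 0.172 to 1.39 CPM. The count of 6 dropped to 3 without AAV2-GFP mouse 3 or 5 or AAV206-GFP mouse 3, to 2 without AAV2-GFP mouse 4 or AAV206-GFP mouse 2, or without AAV2-GFP mice 1 and 4 together, and to 1 without AAV206-GFP mouse 4.

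Read per kilobase of exon, a scale on which levels of different genes can be set side by side, the order of the 10 genes changed most at Xbp1, from rank 1 to rank 4. Sel1l went from rank 4 to rank 2, Herpud1 from rank 2 to rank 1, Eif2ak3 from rank 8 to rank 9 and Ern1 from rank 9 to rank 8. In AAV2-GFP Xbp1 was first at 33.0 ± 3.18 CPM per kilobase (SD, n = 5). Herpud1 at 28.2 ± 1.78 and Atf6b at 25.1 ± 1.93 followed. In each AAV2-GFP retina Xbp1 lay above Herpud1 and Herpud1 above Atf6b. Sel1l and Syvn1 came next at 19.1 ± 1.61 and 16.3 ± 0.398. The low end held Dnajb9 and Atf6 at 11.8 ± 0.992 and 10.8 ± 0.909, whose order varied between retinas. Eif2ak3, Ern1 and Edem1 closed the order at 8.30 ± 0.488, 7.17 ± 1.06 and 5.85 ± 0.951. Their ranges overlapped, but their order was the same in each AAV2-GFP retina. Differences between neighbours were not tested.

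In AAV206-GFP Herpud1 was first at 23.9 ± 1.08 CPM per kilobase (SD, n = 5) and Xbp1 in rank 4 at 16.2 ± 0.867. Sel1l at 19.0 ± 1.17 and Atf6b at 17.9 ± 2.53 lay between them. The order of Sel1l and Atf6b, and that of Atf6b and Xbp1, varied between retinas. Syvn1, Dnajb9 and Atf6 followed at 13.0 ± 0.836, 11.7 ± 1.03 and 11.4 ± 0.982, each overlapping its neighbour. Ern1 at 8.56 ± 0.572 and Eif2ak3 at 7.92 ± 0.784 overlapped too, and Edem1 was last at 4.52 ± 0.378. These lengths are of all annotated exons in GENCODE M21 and may differ from those of the transcripts in the retina.

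The genes with an ERSE match were then read out, to see how Syvn1 sat among them. Of 35 genes with a match, 18 were tested, and 9 fell while none rose, against 5.30% called lower over all tested genes. Of the 83 genes on the pathway lists 64 had a window, and the others were not searched. Those with a match were Hspa5, Calr, Hsp90b1, Dnajc3, Creld2 and Syvn1, all called, while Derl3 holds a match but was not tested. Among the 12 tested genes outside the lists 3 fell, with a median log2 fold change of -0.08 for the 12. They were the chaperone genes Canx and Pdia6 at -0.25 and -0.91, with edgeR adjusted p of 0.0113 and 1.6e-05, and Xlr3a at -1.34 (edgeR adjusted p = 0.0254), named after their values were seen. Xlr3a belongs to a family of near-identical X-linked genes, and carried decimals in 9 libraries, so its count is uncertain. The matches of the tested genes on the pathway lists are shown beside that of Syvn1, in capitals with 10 bases on either side. Those of Calr and Creld2 are on the opposite strand from the gene.
Hspa5: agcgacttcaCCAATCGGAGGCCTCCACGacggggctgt
Calr: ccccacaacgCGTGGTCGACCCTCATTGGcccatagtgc
Hsp90b1: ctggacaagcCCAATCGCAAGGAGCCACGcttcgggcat
Dnajc3: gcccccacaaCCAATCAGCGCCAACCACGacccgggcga
Creld2: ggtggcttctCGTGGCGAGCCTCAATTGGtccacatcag
Syvn1: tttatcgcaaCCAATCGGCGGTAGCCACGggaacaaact
The stretches of Hspa5, Dnajc3 and Creld2 lie at chr2:34772015-34772053, chr14:118937817-118937855 and chr15:88819510-88819548 on the plus strand. Those of Calr and Hsp90b1 lie at chr8:84847065-84847103 and chr10:86705628-86705666 on the minus strand, and that of Syvn1 is at chr19:6046522-6046560. Hsp90b1 holds a further match in its window.

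Other elements were read out in the same windows. ERSE-II was near 7 tested genes, of which Herpud1 was the only one that fell and 1 rose. The letters TGACGTG, the core of the element that XBP1s and ATF6 bind, were in 1.65% of windows, and of 291 tested genes 20 fell and 20 rose. On the pathway lists they were near Hspa5, Nfyc, Sec24d, Srpr, Ube2j1 and Vcp, of which Hspa5 alone was called. The letters TGATGNAAT, a form of the element that ATF4 binds, were near none of the 64 listed genes with a window. Of 55 tested genes elsewhere 2 fell and 4 rose. Over all tested genes 5.30% were called lower and 5.95% higher.

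**Figure D4:**
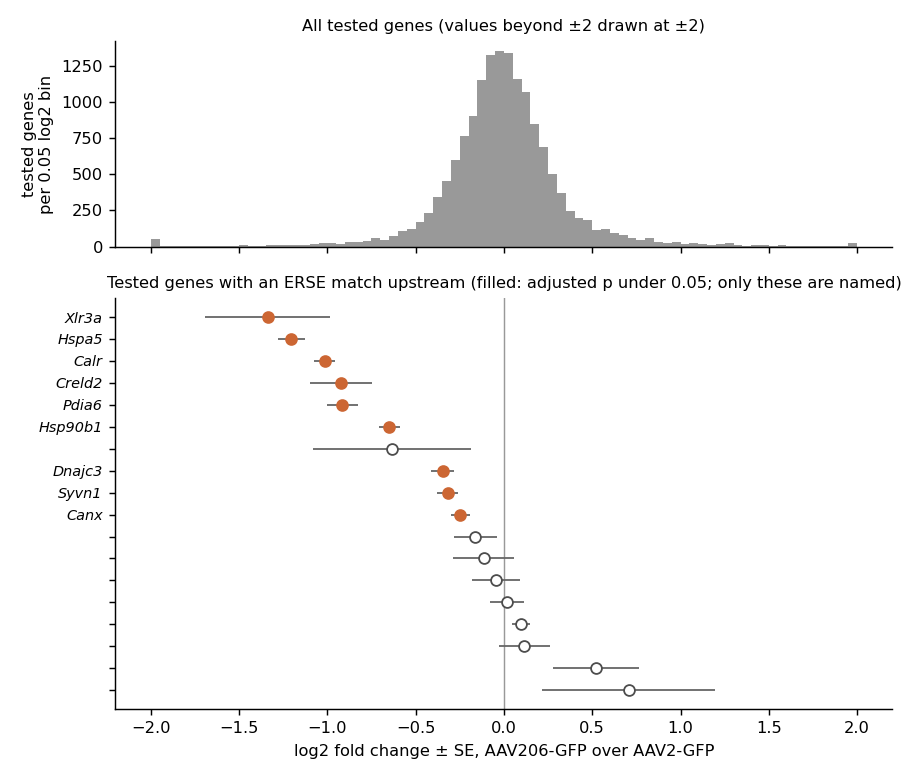
Upper panel, number of tested genes (y axis) by fitted log2 fold change of AAV206-GFP over AAV2-GFP (x axis). Lower panel, the 18 tested genes with an ERSE match in the 250 bases before their start, as points with ± SE bars, filled and named where the edgeR adjusted p was under 0.05. The 9 filled points all lie below 0, from -0.25 for Canx to -1.34 for Xlr3a, with Syvn1 at -0.32.

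Within groups the 10 genes did not vary as a block. After group means were taken out, Pearson's r over the 10 libraries ranged from -0.81 (Atf6 with Herpud1) to 0.69 (Eif2ak3 with Syvn1) for pairs of log2 CPM. These are descriptions, and the values of a pair share the library and its scaling.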

How the data were processed

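The authors deposited expected counts per gene, not scaled between libraries. Per the submitters' processing notes, STAR 2.7.10b, RSEM 1.3.1 and mm10 were used, and the annotation is not given in the sources used here. Of all values above 0, 15.7% carried decimals, as reads divided between genes give, and values were rounded to whole numbers. Symbols, exon lengths and gene positions came from GENCODE M21 (GRCm38), and 91.3% of rows had a symbol. Promoter windows came from RefSeq (GRCm38.p6). Genes were filtered with filterByExpr (minimum count 10), scaled by TMM and tested with the quasi-likelihood F test of edgeR 4.0.16 in R 4.3.3 over all 10 libraries without covariates. Adjusted p-values are Benjamini-Hochberg values over 15539 genes, called under 0.05. The design had been written for whole counts. Standard errors are the absolute log2 fold change over the square root of F. Levels are CPM on TMM-scaled library sizes. Sensor ratios used a prior of 0.5 counts and all 252 relabellings. Genes, lists and tests were chosen with earlier results of these data known. The named genes are the 10 genes and the 12 other called genes of the pathway lists with the smallest p-values. Any further gene was named after its values were seen or to fill out its list. The procedure was tested on simulated data. Reads without molecular identifiers are not independent molecules, so the floor covers counting error only. Alternatives covered scaling, filters, DESeq2 1.42.0, limma-voom (limma 3.58.1), robust edgeR, rounding, a block for the mouse number and left-out libraries.

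Marker lists of 12 cell types or responses were read out as summed CPM. Bipolar markers lay between 694 and 980 CPM in AAV2-GFP and between 588 and 1041 CPM in AAV206-GFP, with 1 of 4 called lower (Grm6, 127 to 181 and 76.8 to 129 CPM, edgeR adjusted p = 0.00225). Ganglion cell markers lay between 566 and 691 and between 543 and 609.6 CPM, with 1 of 4 called lower (Pou4f1, 37.3 to 45.2 and 29.8 to 34.9 CPM, edgeR adjusted p = 0.00623). Müller glia markers lay between 1888 and 2794 and between 2032 and 2375 CPM, with 0 of 4 called by edgeR. RPE markers lay between 10.4 and 35.5 and between 13.3 and 20.5 CPM, with 1 of 4 tested called lower. The result of 1 list is not reported here. T and NK lymphocyte markers were at 17.4 CPM in AAV2-GFP mouse 1 and at most 0.949 CPM elsewhere. Endothelial markers lay between 189 and 209 CPM in AAV2-GFP and between 151 and 178 CPM in AAV206-GFP, with 2 of 5 called lower. Lens markers lay between 10.2 and 31.5 and between 0.182 and 10.3 CPM, with Lim2 at 0 throughout and 2 of 2 tested called lower. Erythrocyte markers lay between 67.8 and 85.8 and between 101 and 319 CPM, with 4 of 5 called higher. Of the interferon response genes 5 of 7 tested were called lower, and of the microglia and macrophage markers 1 of 6 tested. The part of these lists in the results above was not tested.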

Additional observations from a re-analysis of the deposited data

Results flagged for a closer look

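Among 50 group results examined, 2 had 1 mouse far from the other 4, judged by Dixon's ratio of the gap beside it to the whole spread (limit 0.71). Chance alone gives about 2.5. Atf6 was low in AAV206-GFP mouse 1, at 89.7 CPM, while the remaining mice of that group had 107 to 112 CPM, which gives a ratio of 0.794. Manf was high in AAV2-GFP mouse 3, at 55.1 CPM, while the remaining mice had 42.4 to 45.0 CPM, again a ratio of 0.794.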

How the results depend on the processing

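Xbp1, Atf6b and Syvn1 kept their direction and stayed past the threshold in all 22 alternative fits. So did the 8 chaperones, foldases and secreted factors of the ATF6 list, and also Dnajb11, Dnajc3 and Ddit3. For Xbp1 the log2 fold change stayed between -1.06 and -0.97. None of the called genes among the 22 named ones reversed in these fits, and the other called genes were followed only as counts per list. The mouse numbers did not pair the groups. Deviations of same-numbered libraries correlated at between -0.05 and 0.02, and 0 of 5 pairs had their best match in their own number. With the replicate block, 3 of the 10 genes, 3 of the IRE1-XBP1 list and 2 of the ERAD list were called, and 1085 of all genes against 1747. The same counts, 3, 3 and 2, were reached without AAV2-GFP mice 1 and 4, with 985 of all genes. Leaving out single libraries gave 3 to 6 of the 10 genes, 3 to 7 of the IRE1-XBP1 list, 9 to 10 of the ATF6 list, 2 to 4 of the PERK list and 1 to 6 of the ERAD list, and 991 to 1912 of all genes. The Ern1 over Eif2ak3 difference lay between 0.26 and 0.40 in those fits. Eif2ak4 lost its call without AAV2-GFP mice 1 and 4 (log2 fold change 0.39, edgeR adjusted p = 0.0641). An offset for GC content and exon length, chosen after seeing the data, changed none of the calls of the 22 named genes, with Xbp1 at -0.97, Atf6b at -0.34 and Herpud1 at -0.16. It left 5 of 6 calls of the IRE1-XBP1 list, none of them higher, 2 of 3 of the PERK list and 5 of 6 of the ERAD list. The cause of the lost calls was not tested.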

Other observations

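Relatives of PERK and known substrates of IRE1 were read out from 2 further lists. The other kinases of eIF2α did not move together. Eif2ak4, which encodes the amino acid sensor GCN2, was at 29.7 ± 2.85 CPM in AAV2-GFP and at 39.9 ± 5.73 CPM in AAV206-GFP (SD, n = 5). It rose by 0.43 on the log2 scale (edgeR adjusted p = 0.0133), with no overlap between the groups. Eif2ak1, which encodes the haem-regulated kinase, had a log2 fold change of -0.08 and Eif2ak2, the interferon-induced kinase PKR, of -0.37 (edgeR adjusted p = 0.480 and 0.594). Eif2ak1 carried decimals in all 10 libraries. Eif2ak2 was at 9.22 and 22.8 CPM in AAV2-GFP mice 1 and 4, the mice with high interferon response genes, and between 4.02 and 8.67 CPM in the other 8 retinas.

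IRE1 also cuts a set of other mRNAs. Of 6 listed substrates, all tested, 1 rose and 5 were not called, while 5.95% of all tested genes were called higher. Scara3 had a log2 fold change of 0.34 (edgeR adjusted p = 0.0404, named after its values were seen), and Bloc1s1, the best known of them, of 0.19 (edgeR adjusted p = 0.452) with decimals in all 10 libraries. Hgsnat and Col6a1 had log2 fold changes of 0.16 and 0.13, and Pdgfrb and Pmp22 of -0.05 and -0.33, none of them called.

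The genes most like Xbp1 within groups, among those with a mean of at least 10 CPM, were Ndufb4, Srprb and Tmem231, with Pearson's r of 0.96, 0.95 and 0.95 over 10 libraries after group means were taken out. They were picked as the highest values of all such genes. None of them was called between the groups, at log2 fold changes of -0.10, -0.20 and -0.09.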
